A study of Mus musculus with 91 samples.

Results

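Germ cells of the XX gonad were compared between E12.5 and E11.5, the day over which they leave the primordial germ cell state and the first of them move toward meiosis. Genes entered the comparison when a transcript cluster of the array named that gene alone and had log2 values of 6 or more in 2 or 3 arrays of either stage, which held for 15093 of 21789 single-gene clusters and 13749 of 19938 genes. The rule uses levels and not the difference between the stages, and a gene that is near background at one stage enters through the other. *Gcg* (6.00007), *Fmn2* (6.00009) and *Tspoap1* (6.00015) lay just inside the limit in their second-highest array, and *Tmem200a* (5.99995), *Cxcl11* (5.99970) and *Pnmal1* (5.99932) just outside.

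The groups were *Oct4-EGFP* positive cells of XX gonads at E12.5 (Theiler stage 20) and at E11.5 (Theiler stage 19), with 3 arrays each. All carried the transgene Tg(Pou5f1-EGFP)2Mnn, in which *Pou5f1* (*Oct4*) sequences drive EGFP in germ cells, on a cross of CD-1 with C57BL/6J mice, and each array held cells pooled from at least 1 litter. XY germ cells of the same reporter line at E12.5 and E11.5, XX supporting cells sorted for *Sry-EGFP* (same cross) at E12.5 and E11.5, and XX germ cells at E13.5 served for comparison, with 3 arrays per group. By the labels the mesonephros was taken with the gonad at E11.5 and not at E12.5 in the germ cell sorts, so stage and dissection cannot be told apart here, whereas the methods leave it attached for this reporter. The arrays of a group are replicates of separate pools, and their number limits the precision of each value.

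Primordial germ cells colonise the gonad as proliferating cells that express pluripotency genes and have erased most of their DNA methylation. In the ovary, BMP and retinoic acid signals then lead to the expression of *Stra8* and of the cohesin, synapsis and recombination genes of meiotic prophase, while in the testis the germ cells do not enter meiosis before birth. A further group of germline genes, among them *Ddx4*, *Dazl* and *Mael*, is switched on in gonadal germ cells of both sexes once promoter methylation and Polycomb repression are lifted.

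The 6 array medians lay between 6.578 and 6.651 on the log2 scale. Arrays of a stage correlated at 0.9914 to 0.9928 (E12.5) and 0.9901 to 0.9932 (E11.5), and arrays of different stages at 0.9818 to 0.9903. The median SD over 3 arrays was 0.122 at E12.5 and 0.126 at E11.5. *Pou5f1*, the gene of the reporter, was measured at 10.73, 10.79 and 10.79 in the E12.5 arrays, against 11.15, 10.98 and 10.93 in the E11.5 arrays, and *Ddx4*, a germline RNA helicase, at 11.38, 11.57 and 11.34 against 10.79, 10.86 and 10.68. Markers of supporting, endothelial and stromal cells had lower list means in the germ cell arrays than in the cells they mark. The stromal marker *Ptch1* was the exception among members, at 9.03 in E12.5 germ cells and 8.85 in stromal cells. The mean of 14 supporting cell markers was 6.67 to 6.99 in the E12.5 and 6.76 to 6.91 in the E11.5 germ cell arrays, where supporting cells themselves had 9.48 to 9.63 at E12.5. That of 12 endothelial markers was 6.14 to 6.38 and 6.29 to 6.40 (endothelial cells, 9.99 to 10.22), and that of 11 stromal markers 6.87, 6.59 and 7.23 in the E12.5 arrays, against 6.84 to 6.96 at E11.5 (stromal cells, 8.72 to 9.03). Mesonephric and epithelial markers averaged 6.93 to 7.03 at E12.5 and 6.87 to 6.90 at E11.5, red blood cell markers 7.01 to 7.38 and 7.12 to 7.59, and leukocyte markers 5.83 to 5.95 and 5.88 to 6.06. The mesonephric, red blood cell and leukocyte lists had no sorted cells of their own to compare with. Their members ranged from 4.92 (*Lyz2*) to 10.65 (*Tfrc*) on average at E12.5. No tested marker of the 6 lists passed limma's test in the fit of 72 arrays (1 endothelial marker was lower and 1 mesonephric marker higher at an unadjusted p under 0.05). With the 18 germ cell arrays alone 1 stromal and 1 red blood cell marker were called higher and 1 endothelial marker lower, and without E12.5 replicate 3 1 stromal marker was called lower. In bulk samples, fewer cells of a kind and less RNA per cell cannot be told apart.

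Upstream sequence is shown for 5 genes that the comparison turns on, to set beside their levels. *Stra8* and *Meioc* belong to the meiotic entry genes, *Sycp1* to the synaptonemal complex, and *Mael* and *Taf7l* to the germline licensing genes. Each sequence is the 250 bases before the RefSeq start site in GRCm38.p6, written 5' to 3' on the strand of the gene, at chr6:34920698-34920947 (*Stra8*, plus strand), chr11:102665335-102665584 (*Meioc*, plus), chr3:102936101-102936350 (*Sycp1*, minus), chr1:166238745-166238994 (*Mael*, minus) and chrX:134476491-134476740 (*Taf7l*, minus). Capitals mark matches to 3 short motifs searched on both strands, AGGTCA (a half-site of nuclear receptors such as the retinoic acid receptors), TCCCGC (bound by E2F6 and other E2F factors) and CACGTG (an E-box, which reads the same on both strands). In *Meioc* the capitals are GCGGGA, which is TCCCGC on the opposite strand.
Stra8: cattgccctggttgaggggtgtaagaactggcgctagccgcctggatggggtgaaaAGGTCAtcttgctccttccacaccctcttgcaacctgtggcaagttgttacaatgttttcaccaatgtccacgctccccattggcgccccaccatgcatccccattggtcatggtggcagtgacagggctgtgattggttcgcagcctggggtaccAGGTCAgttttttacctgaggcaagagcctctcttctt
Meioc: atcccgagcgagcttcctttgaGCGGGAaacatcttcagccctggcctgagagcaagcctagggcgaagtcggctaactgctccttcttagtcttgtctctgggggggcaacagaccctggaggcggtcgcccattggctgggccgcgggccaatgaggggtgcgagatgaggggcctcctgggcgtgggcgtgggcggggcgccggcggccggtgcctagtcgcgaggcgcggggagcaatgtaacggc
Sycp1: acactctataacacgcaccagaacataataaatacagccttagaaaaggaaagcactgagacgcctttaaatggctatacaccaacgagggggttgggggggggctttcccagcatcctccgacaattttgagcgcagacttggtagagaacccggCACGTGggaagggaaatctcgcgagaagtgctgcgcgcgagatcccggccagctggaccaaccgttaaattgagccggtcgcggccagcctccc
Mael: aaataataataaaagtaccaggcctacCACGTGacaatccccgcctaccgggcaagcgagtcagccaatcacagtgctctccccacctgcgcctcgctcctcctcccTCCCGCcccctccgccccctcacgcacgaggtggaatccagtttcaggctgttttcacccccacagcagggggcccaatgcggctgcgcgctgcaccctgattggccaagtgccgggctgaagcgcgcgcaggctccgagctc
Taf7l: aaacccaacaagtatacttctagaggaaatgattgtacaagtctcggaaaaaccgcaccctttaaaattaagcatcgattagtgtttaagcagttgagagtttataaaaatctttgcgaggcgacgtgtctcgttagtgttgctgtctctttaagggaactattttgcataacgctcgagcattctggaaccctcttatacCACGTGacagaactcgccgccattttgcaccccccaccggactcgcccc

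AGGTCA began 194 and 38 bases before the *Stra8* start site, TCCCGC 228 bases before that of *Meioc* (opposite strand) and 143 before that of *Mael*, and CACGTG 94, 223 and 49 bases before those of *Sycp1*, *Mael* and *Taf7l*. Such 250-base windows were available and unique for 8783 of the 13749 genes. Of these, 719 (8.2%) held CACGTG, 2590 (29.5%) TCCCGC and 958 (10.9%) AGGTCA. Among 13 germline licensing genes with a window, 8 held CACGTG (*Brdt*, *Ddx4*, *Mael*, *Mov10l1*, *Slc25a31*, *Sycp1*, *Sycp3* and *Taf7l*) 5 TCCCGC and 2 AGGTCA. Among 17 genes of meiotic axis, synapsis and recombination, 5 held CACGTG, 7 TCCCGC and 4 AGGTCA, and among 5 meiotic entry genes 2 held CACGTG (*Rbm46* and *Zglp1*), 3 TCCCGC (*Meioc*, *Rbm46* and *Rec8*) and 2 AGGTCA (*Stra8* and *Zglp1*). Over all genes called higher at E12.5, 10.4% held CACGTG, 36.5% TCCCGC and 7.7% AGGTCA, and over genes called lower 11.7%, 28.8% and 14.1%. A match is a description of these letters and not evidence of binding.

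Over the whole comparison, 538 genes (3.91%) were higher and 333 (2.42%) lower at E12.5 than at E11.5, at an adjusted p under 0.05 in limma (6.34% called in all). The median log2 difference was 0.63 among the genes called higher, -0.56 among those called lower and -0.01 over all genes tested. A change of over 2-fold was found in 72 of the higher and 22 of the lower genes. All 3 E12.5 arrays lay above all 3 E11.5 arrays in 1789 genes (13.0%) and below them in 1589 (11.6%). Genes called higher did not overlap between the stages in 520 cases of 538 (96.7%), and genes called lower in 301 of 333 (90.4%). Among the 538 genes called higher, the E12.5 array with the highest level was replicate 2 in 357, and the E11.5 array with the lowest level was replicate 1 in 302. Without E12.5 replicate 2, 272 genes were called higher and 154 lower. Without E11.5 replicate 1, 318 were called higher, and without E11.5 replicate 3 or E12.5 replicate 3, 192 or 208 were called lower. The error of the fit is shared by 24 groups over 72 arrays, so an SE does not measure the spread of these 6 arrays. Fitted alone, the 6 arrays gave 394 genes higher and 209 lower.

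Meiotic entry genes had the largest median difference of the gene lists counted. *Stra8*, the retinoic acid responsive factor that starts the meiotic programme, was measured at 7.56, 8.34 and 6.86 in the E12.5 arrays, against 5.25, 5.07 and 5.28 in the E11.5 arrays. Every E12.5 array lay above every E11.5 array, the E11.5 levels lay under the limit of 6, and the E12.5 arrays differed among themselves by more than those of most genes (SD 0.74, against 0.11 at E11.5). The log2 difference was 2.38 (SE 0.15, adjusted p = 5.4e-18), a ratio of intensities of 5.22, and in a fit of these 6 arrays alone the adjusted p was 0.0138. By E13.5 *Stra8* stood at 10.32, 10.25 and 10.47. In XY germ cells it was 5.27, 5.43 and 5.37 at E12.5, against 5.16, 5.21 and 5.41 at E11.5, so that the XX arrays of E12.5 alone left the range below 6 among these 12 arrays.

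*Meioc*, whose product keeps germ cells in an extended meiotic prophase, had 7.56, 7.02 and 5.71 at E12.5, against 4.74, 4.83 and 5.02 at E11.5 (log2 difference 1.90, SE 0.19, adjusted p = 1.3e-10). E12.5 replicate 3 was again the lowest and lay under 6. For the genes that follow, the first value in parentheses is this difference, E12.5 minus E11.5 on the log2 scale. *Rec8*, the meiotic cohesin subunit, had 7.02, 7.80 and 7.24 at E12.5, against 6.45, 6.44 and 6.50 (0.89, SE 0.15, adjusted p = 3.1e-05). *Zglp1*, a transcription factor that acts downstream of BMP signals in the oogenic programme, had 7.19, 7.26 and 6.65, against 6.43, 6.22 and 6.41 (0.68, SE 0.11, adjusted p = 1.2e-05). In limma's fit of the 6 arrays alone *Zglp1* did not pass (adjusted p = 0.0611). *Meioc*, *Rec8* and *Zglp1* did not overlap between the stages, and their means stood apart by more than the range of either group. The nearest arrays of the stages lay closer than that range at E12.5, as with 6.65 and 6.43 for *Zglp1*. *Ythdc2*, the RNA helicase that partners MEIOC, rose by 1.14 (SE 0.29, adjusted p = 0.0072), with 9.0, 9.33 and 9.23 at E12.5, against 7.55, 8.48 and 8.11 at E11.5, a call lost without E11.5 replicate 1 (adjusted p = 0.105) or without E12.5 replicate 2. *Rbm46*, an RNA-binding protein of meiotic entry, had 10.46, 10.50 and 10.49, against 9.59, 10.02 and 9.78, and did not pass (0.68, adjusted p = 0.0803). In the meiotic entry list 5 of 6 genes were thus called higher (83.3%, where 3.91% of all genes were) and none lower, with a median log2 difference of 1.02.

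**Figure D1:**
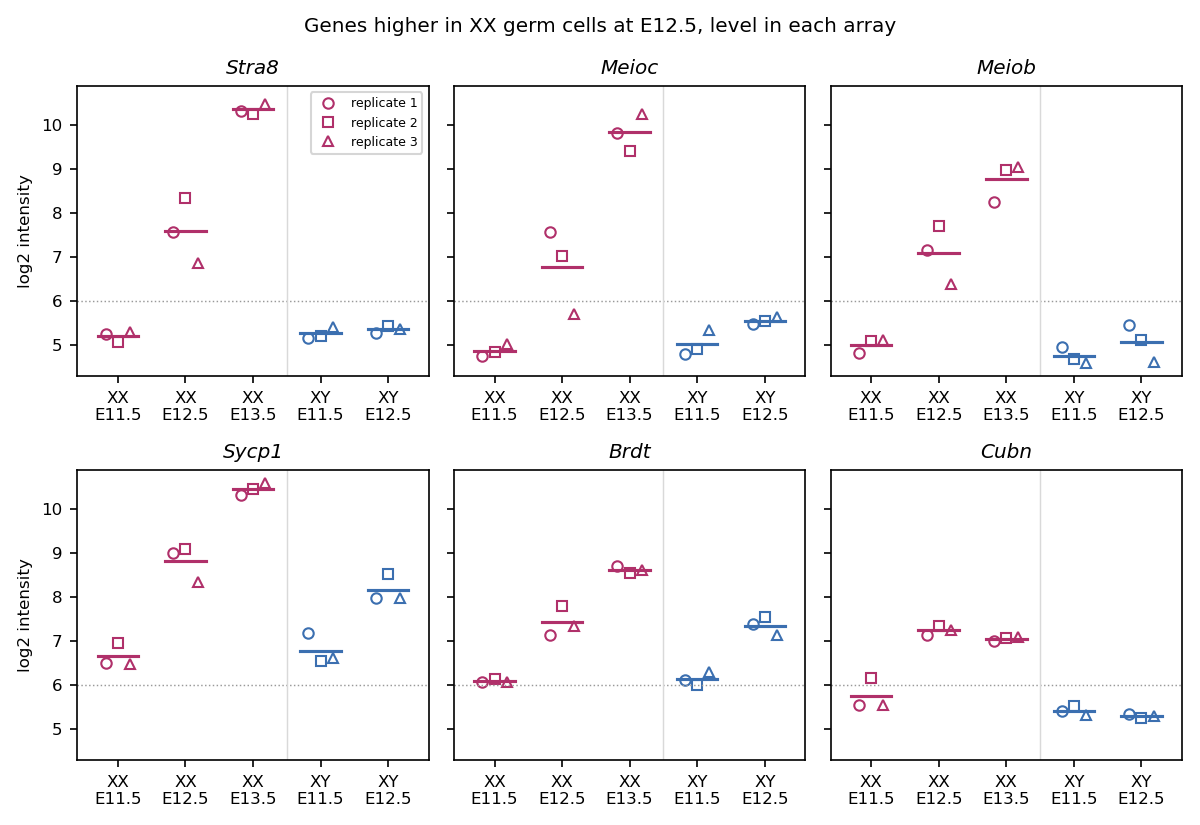
Log2 intensity of *Stra8*, *Meioc*, *Meiob*, *Sycp1*, *Brdt* and *Cubn* in each array of XX germ cells (E11.5 to E13.5) and XY germ cells (E11.5 and E12.5). Symbols give the replicate, bars the mean of 3 arrays and the dotted line the limit of 6. *Stra8*, *Meiob* and *Cubn* are higher at E12.5 in XX germ cells and stay below 6 in XY germ cells, whereas *Sycp1* and *Brdt* are higher at E12.5 in both sexes.

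Of 28 genes of the meiotic chromosome axis, synapsis and recombination, 16 were called higher (57.1%) and none lower, with a median of 0.60. Some, such as *Meiob* and *Hfm1*, met the limit at E12.5 alone, and members low at both stages were not counted, so the share depends on the limit. With no limit on low values 17 members were called higher and 0 lower. *Sycp1*, the transverse filament of the synaptonemal complex, had 8.99, 9.09 and 8.34 at E12.5, against 6.49, 6.96 and 6.48 at E11.5 (2.16, SE 0.25, adjusted p = 4.2e-09). *Meiob*, a single-strand DNA binding protein of meiotic recombination, had 7.15, 7.71 and 6.39, against 4.82, 5.08 and 5.11 (2.08, SE 0.19, adjusted p = 1.4e-11). *Sycp2*, a protein of the axial element, had 7.88, 7.47 and 6.65, against 5.40, 6.02 and 5.61 (1.66, SE 0.18, adjusted p = 2.1e-09). In all 3 genes E12.5 replicate 3 was the lowest of its stage, yet above every E11.5 array.

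The recombinase gene *Dmc1* had 9.42, 9.16 and 9.29 at E12.5, against 7.56, 8.25 and 7.91 (1.38, SE 0.23, adjusted p = 2.1e-05). *Tex11*, an X-linked gene of crossover formation, rose by 1.37, the helicase *Hfm1* by 1.19, the cohesin *Smc1b* by 1.10, *Tex15* by 1.09 and the axis proteins *Hormad2* and *Hormad1* by 0.90 and 0.82. In limma's fit of the 6 arrays alone *Tex11* did not pass (adjusted p = 0.068). *Spo11*, the nuclease of meiotic breaks, was called at 0.66 although its arrays overlapped, as did those of *Tex12* (1.41, with 7.03, 7.61 and 5.76 at E12.5, against 4.87, 6.27 and 5.03). The calls of *Tex12* and *Sycp3* (0.88, an axial element protein) were lost without E11.5 replicate 1 or without E12.5 replicate 2, that of *Sycp3* also without E11.5 replicate 3. Without either of the first 2 arrays the whole list had 9 genes called higher. Other members were not called. *Msh5* differed by 0.06, *Trip13* by -0.01 and *Mei4* by 0.13, and *Prdm9*, which marks the sites of meiotic breaks, had 7.10, 6.59 and 6.62 at E12.5, against 6.42, 6.44 and 6.31 (0.38, adjusted p = 0.228), while its mean at E13.5 was 9.18. *Rad21l*, *Msh4*, *Spata22*, *Iho1* and *Terb1* did not reach the limit at either stage.

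Germline licensing genes, the group released from promoter methylation in gonadal germ cells, were called higher in 12 of 18 cases (66.7%) and lower in 1, with a median of 0.78. The list shares *Sycp1*, *Sycp3* and others with the lists of meiosis and of the piRNA pathway. Some members, such as *Tdrd1*, met the limit at E12.5 alone. With no limit on low values 11 were called higher and 1 lower. *Brdt*, a testis bromodomain protein, had 7.12, 7.80 and 7.34 at E12.5, against 6.06, 6.13 and 6.07 at E11.5 (1.33, SE 0.09, adjusted p = 5.8e-16). *Slc25a31*, a germline ADP/ATP carrier, had 8.54, 8.81 and 8.07, against 7.11, 7.33 and 7.04 (1.32, adjusted p = 1.8e-06). *Mael*, a factor of transposon silencing, had 10.03, 9.99 and 9.76, against 8.72, 9.29 and 8.49 (1.10, SE 0.21, adjusted p = 2.9e-04). None of these 3 overlapped between the stages.

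*Taf7l*, an X-linked relative of a TFIID subunit, had 8.56, 8.33 and 7.37 at E12.5, against 6.74, 6.16 and 6.10 (1.75, SE 0.26, adjusted p = 3.1e-06). *Stk31* rose by 0.98, and *Tex101* by 0.59 with overlapping arrays. *Dazl*, the RNA-binding protein that makes germ cells competent for sexual differentiation, had 10.79, 10.82 and 10.83, against 10.14, 10.32 and 10.02, and did not pass (0.66, adjusted p = 0.101), nor did *Ddx4* (0.65, adjusted p = 0.0691), although neither overlapped between the stages. *Rpl10l* was called lower, with 6.94, 6.68 and 7.0 at E12.5, against 7.60, 8.01 and 7.52 (-0.83, adjusted p = 6.0e-04). It is a retrogene copy of a ribosomal protein gene, and its probes may not tell the copies apart. In the piRNA pathway 6 of 16 genes were called higher (37.5%, where 3.91% of all genes were) and none lower (median 0.54). *Tdrd7*, a tudor domain protein of germ granules, had 8.07, 8.45 and 7.95, against 6.54, 7.02 and 6.94 (1.33, adjusted p = 1.2e-06), and *Tdrd1* (0.74), *Rnf17* (0.64) and *Tdrd9* (0.55) also rose. *Piwil2*, a PIWI protein of fetal germ cells, overlapped between the stages (0.34, adjusted p = 0.2).

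**Figure D2:**
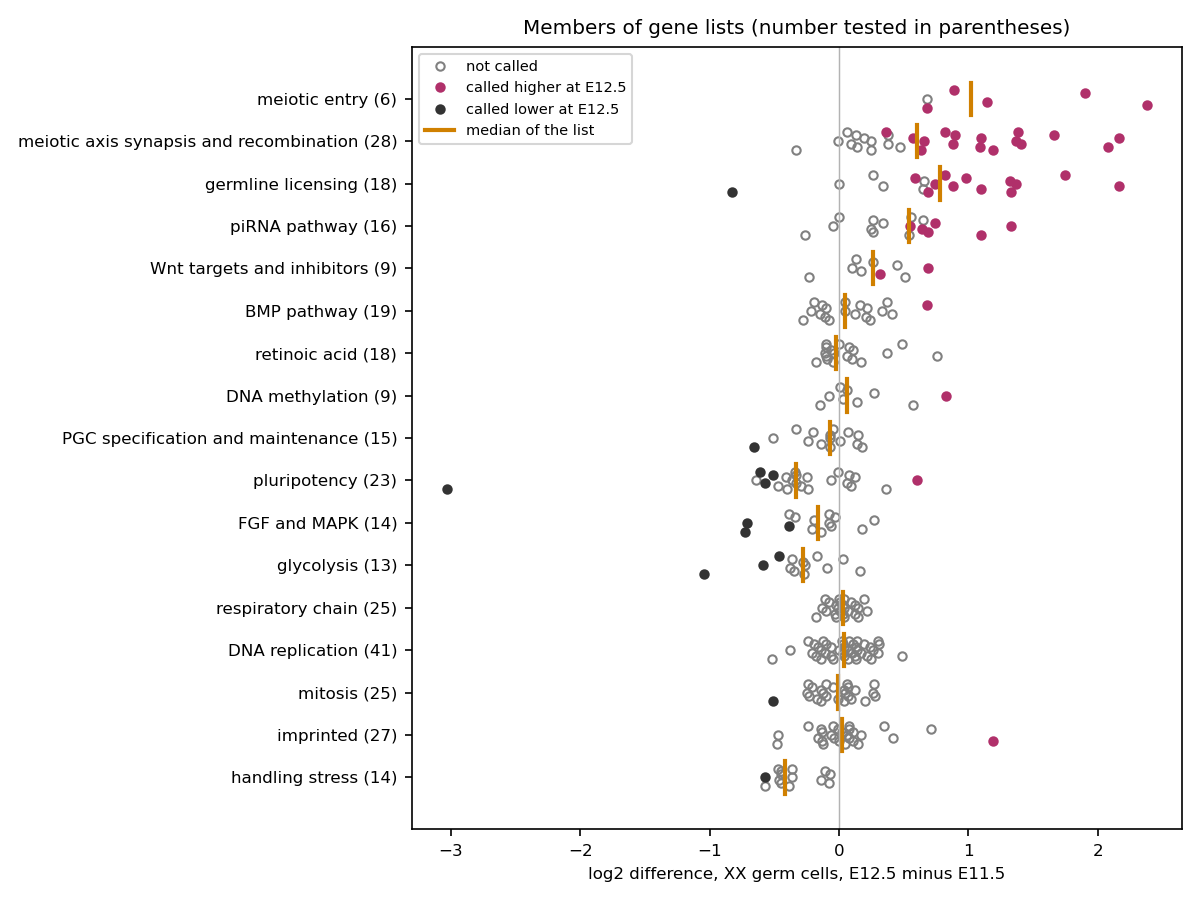
Log2 difference, E12.5 minus E11.5 XX germ cells, of each tested member of 17 gene lists. Each point is 1 gene, filled points passed limma's test at an adjusted p under 0.05, and bars give the median of the list, from 1.02 for meiotic entry to -0.42 for handling stress genes.

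Among the genes with the largest rise outside these lists, *Slc35f5*, a member of a nucleotide sugar transporter family, had 8.44, 8.31 and 8.21 at E12.5, against 6.09, 6.62 and 6.72 at E11.5 (1.84, adjusted p = 2.4e-10). *Rnf130*, a RING finger ubiquitin ligase gene, had 9.69, 10.09 and 9.88, against 8.03, 8.30 and 8.16 (1.72, SE 0.14, adjusted p = 6.9e-14). *Dnah8*, an axonemal dynein heavy chain of sperm, had 8.41, 9.12 and 8.48, against 6.97, 7.20 and 6.86 (1.66, adjusted p = 2.5e-11). *Cubn*, the endocytic receptor cubilin, had 7.12, 7.34 and 7.24, against 5.55, 6.16 and 5.54 (1.49, SE 0.08, adjusted p = 4.6e-20), and stood at 7.05 on average at E13.5. For *Cubn* the adjusted p in limma's fit of the 6 arrays alone was 0.0137. *Ccdc172* (1.81), *Fbxo47* (1.77), *Spaca1* (1.55), *Lonrf2* (1.54), *Shtn1* (1.49) and *Larp1b* (1.49) completed the 15 largest rises without overlap, and *Cubn* and *Scml2* equalled the last of them after rounding (1.49). *Hmcn1*, a hemicentin gene read by 70 clusters, was positive in all 70 and called in 20, and *Chd7*, a chromatin remodeller, was positive in 24 of 25 and called in 8. *Hmcn1* and *Chd7* were picked after their values were seen.

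Of the genes that fell, *Tdgf1*, the Nodal co-receptor Cripto of pluripotent cells, fell most. It had 8.21, 6.24 and 7.38 at E12.5, against 9.82, 10.49 and 10.60 at E11.5 (-3.03, SE 0.23, adjusted p = 1.8e-14), an 8.16-fold lower intensity. For *Tdgf1* the adjusted p in limma's fit of the 6 arrays alone was 0.0185. The E12.5 arrays were widely spread (SD 0.99), and replicate 2, which had the highest *Stra8*, had the lowest *Tdgf1*. At E13.5 it was 5.96, 6.12 and 5.90. XY germ cells kept it at 10.71, 10.27 and 10.63 at E12.5, against 10.76, 11.15 and 11.02 at E11.5 (-0.44, adjusted p = 0.442).

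The other pluripotency genes differed by less. In that list 4 of 23 genes were called lower (17.4%, where 2.42% of all genes were) and 1 higher, with a median of -0.33. *Zfp42* (Rex1) had 7.97, 7.64 and 8.17 at E12.5, against 8.43, 8.70 and 8.48 (-0.61, adjusted p = 0.00318, or 0.0865 without E12.5 replicate 2). *Sox2* had 9.12, 9.67 and 9.44, against 10.04, 9.94 and 9.97 (-0.57, adjusted p = 0.0414), and *Nanog* 9.12, 9.03 and 9.13, against 9.72, 9.72 and 9.34 (-0.51, adjusted p = 0.024). None of the 3 overlapped between the stages, yet leaving out 1 array ended the call of *Sox2* in 5 of 6 fits (adjusted p up to 0.243) and that of *Nanog* in 4 of 6 (up to 0.132). *Pou5f1* differed by -0.25 (adjusted p = 0.756). *Lin28b*, an inhibitor of let-7 processing, was the gene called higher, with 8.23, 8.57 and 8.57, against 7.82, 7.86 and 7.88 (0.60, adjusted p = 0.0267), which held in 1 of 6 fits without 1 array. At E13.5 *Nanog* averaged 7.70 and *Pou5f1* 10.01. Without E12.5 replicate 3, 2 genes of the list were called lower.

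**Figure D3:**
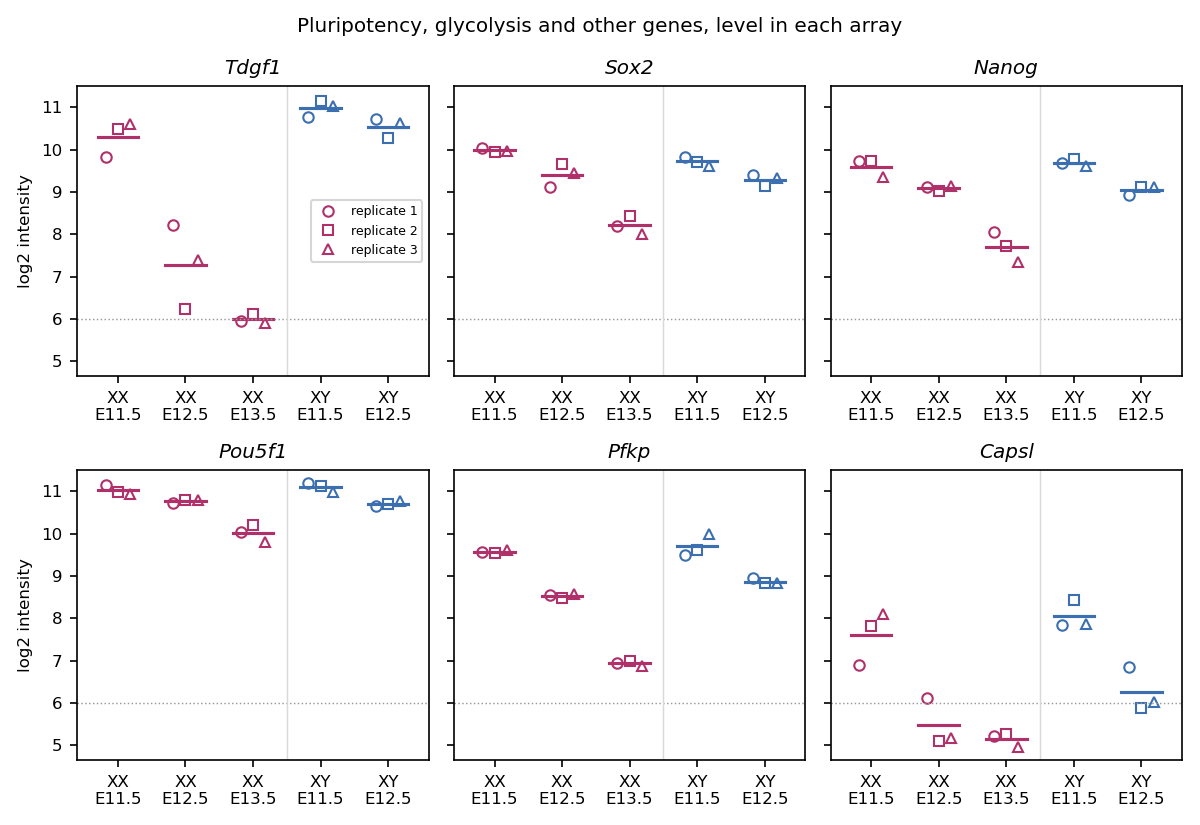
Log2 intensity of *Tdgf1*, *Sox2*, *Nanog*, *Pou5f1*, *Pfkp* and *Capsl* in each array of XX germ cells (E11.5 to E13.5) and XY germ cells (E11.5 and E12.5). Symbols give the replicate, bars the mean of 3 arrays and the dotted line the limit of 6. *Tdgf1* at E12.5 spans 6.24 to 8.21 in XX germ cells and stays above 10 in XY germ cells.

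Genes of primordial germ cell specification and maintenance were mostly not called (0 of 15 higher and 1 lower, where 3.91% and 2.42% of all genes were, median -0.07). *Prdm1* (Blimp1) and *Prdm14*, which specify primordial germ cells, differed by 0.01 and -0.07. *Tfap2c*, their partner, was called lower with overlapping arrays, 7.94, 8.34 and 7.82 at E12.5, against 7.62, 9.36 and 9.08 (-0.66, adjusted p = 0.0366, and -0.32 with adjusted p = 0.469 without E11.5 replicate 2). *Morc1*, which silences transposons in male germ cells, had 7.43, 6.61 and 7.04, against 7.97, 7.92 and 7.83 (-0.88, adjusted p = 8.1e-06). Both genes were lower in XY germ cells too, *Tfap2c* by -1.0 (adjusted p = 0.00065 in limma) and *Morc1* by -0.9 (adjusted p = 4.4e-06). Neither step was shown to differ between the sexes (adjusted p = 0.999 for each). Of 9 genes of the fetal male germ cell on the array, *Tdgf1* and *Morc1* were lower, *Nodal* differed by -0.17, and *Nanos2*, *Lefty1*, *Lefty2*, *Dnmt3l*, *Piwil4* and *Hesx1* did not reach the limit, with highest values of 6.38, 6.09, 5.80, 5.05, 6.15 and 5.80 in any of the 6 arrays.

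Outside these lists, *Capsl*, a calcyphosine-like gene, had 6.12, 5.10 and 5.18 at E12.5, against 6.89, 7.82 and 8.11 at E11.5 (-2.14, adjusted p = 3.8e-09), and *Ina*, the neuronal intermediate filament internexin, 7.54, 7.19 and 6.86, against 8.52, 8.55 and 8.92 (-1.47, adjusted p = 8.0e-11). *Gtsf1l*, a relative of the piRNA factor *Gtsf1*, had 8.45, 7.60 and 7.89, against 9.33, 9.38 and 9.17 (-1.31, adjusted p = 1.1e-09). *Gng3* fell by 1.35, *Zfp980* by 1.37, *Pdha2* and *Prelid3a* by 1.23 each, *Snord52* by 1.26 and *Crip2* by 1.11. *H2bc4* (-1.77), *Set* (-1.28), *Zfp773* (-1.19), *Fv1* (-1.15) and *Mt2* (-1.11) were called too, and each lost its call without at least 1 of the 6 arrays. *Set* was at -0.77 without E11.5 replicate 2 (adjusted p = 0.109), where it had read 8.70 against 7.02 and 7.32 in the other two. *Set* and *H2bc4* have close copies elsewhere in the genome, so their values are uncertain.

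Signalling lists differed in the share called, where 3.91% of all genes were higher and 2.42% lower. The Wnt list had 22.2% called higher and the FGF and MAPK list 21.4% called lower. These shares rest on few genes. In the fits without 1 array, 1 to 2 Wnt genes were higher and 0 to 2 FGF and MAPK genes lower. All FGF and MAPK calls were lost without E11.5 replicate 1. The BMP list had 5.26% called higher and the retinoic acid list 0. In the retinoic acid list 0 of 18 genes passed limma's test (2 were higher and 0 lower at an unadjusted p under 0.05), with a median of -0.02. In that list 2 genes were called higher when the 6 XX germ arrays were fitted alone, and 1 with the 18 germ cell arrays. The BMP list had 0 called higher with the 6 arrays alone. *Stra6*, the retinol receptor, differed by -0.10, and the receptors *Rara* and *Rarb* by 0.11 and 0.06. *Crabp2*, a retinoic acid binding protein, had 9.89, 9.64 and 10.06, against 9.24, 9.12 and 8.95, without overlap but short of the threshold (0.76, adjusted p = 0.0652). The BMP list held 1 of 19 called higher, *Zglp1*, and a median of 0.05. *Id1*, *Id2* and *Id3*, targets of BMP signals, differed by 0.22, 0.05 and -0.22 in XX germ cells, where in XY germ cells *Id2* fell by 1.09 and *Id3* by 1.13. The steps of *Id2* and *Id3* were not shown to differ between the sexes (adjusted p = 0.24 and 0.28). *Axin2*, a feedback target of Wnt signalling, had 8.65, 9.17 and 8.86, against 8.06, 8.27 and 8.28 (0.69, adjusted p = 5.3e-04), and *Notum*, a secreted Wnt inhibitor, was called at 0.32 (adjusted p = 0.0458, and 0.17 with adjusted p = 0.585 without E12.5 replicate 2), the 2 of 9 Wnt genes that passed. Feedback targets of FGF and MAPK signalling were lower, namely *Spry4* (-0.71, adjusted p = 0.0101), *Spry2* (-0.73, adjusted p = 0.0156) and *Etv4* (-0.39, adjusted p = 0.0465), 3 of 14 genes in the list. Leaving out 1 array ended these 3 calls in 2, 4 and 5 of 6 fits.

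Calls in the lists of cell division are set beside 3.91% higher and 2.42% lower over all genes. Among 41 DNA replication genes limma called 0 (4 higher and 2 lower at an unadjusted p under 0.05, 1 higher and 2 lower with the 18 germ cell arrays alone, median 0.04), and *Mcm2* had 10.11, 10.14 and 10.00 at E12.5, against 9.92, 10.01 and 10.07 at E11.5. Of 25 mitosis genes 1 was called lower, the kinase *Aurkb* (-0.51, adjusted p = 0.0376, held in 1 of 6 fits without 1 array), and the median was -0.01. XX supporting cells over the same day had 10 of 25 mitosis genes lower (2.39% of all genes there) and a median of -0.48. Among 20 G1 cyclins and cell cycle inhibitors 1 was higher (5.0%) and 2 lower (10.0%). *Rb1*, the retinoblastoma protein, had 9.57, 9.87 and 9.51, against 8.74, 8.98 and 8.91 (0.78, adjusted p = 0.0033, or 0.0542 without E12.5 replicate 2), and *Cdk4*, the kinase of D cyclins, had 10.87, 10.61 and 10.67, against 11.47, 11.24 and 11.28 (-0.61, adjusted p = 0.0027). *Ccnd3*, a D cyclin, was called at -0.35 and held in 1 of 6 fits without 1 array. In the apoptosis and p53 list limma called 0 of 12 genes (1 higher and 1 lower at an unadjusted p under 0.05).

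In DNA methylation, *Uhrf1*, the factor that brings DNMT1 to replicated DNA, had 8.91, 9.38 and 8.88 at E12.5, against 8.11, 8.10 and 8.46 at E11.5 (0.83, adjusted p = 1.2e-04). It was the one called of 9 genes (11.1%, where 3.91% of all genes were higher). *Dnmt1* (0.14), *Dnmt3a* (0.06) and *Dnmt3b* (0.01) did not pass. Of 24 Polycomb genes 1 was called higher (4.17%, near the share of all genes). It was *Phc3* (1.01, adjusted p = 0.0374, up to 0.385 without E11.5 replicate 3, where it had read 6.80 against 7.85 and 8.03). With the 18 germ cell arrays alone 2 Polycomb genes were higher and 2 lower. Among 27 imprinted genes 1 was called higher (3.7%, also near the share of all genes), and the list had a median of 0.02. It was *Plagl1*, a zinc finger growth regulator, with 9.01, 9.30 and 9.61, against 8.46, 8.12 and 7.76 (1.19, adjusted p = 3.4e-05).

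Glycolysis genes were lower in 3 of 13 cases (23.1%, where 2.42% of all genes were, median -0.28). In XY germ cells 3 of the 13 were lower too (2.32% of all genes there, median -0.29), and 2 were lower in both sexes. *Pfkp*, the platelet form of phosphofructokinase, had 8.55, 8.48 and 8.57 at E12.5, against 9.56, 9.54 and 9.62 at E11.5 (-1.04, SE 0.21, adjusted p = 8.2e-04), and averaged 6.93 at E13.5. The glucose transporters *Slc2a3* (-0.59, adjusted p = 0.00213) and *Slc2a1* (-0.46, adjusted p = 0.034, held in 1 of 6 fits without 1 array) were lower too, while *Hk1*, a hexokinase at 12.4 to 12.6 in all 6 arrays, differed by 0.03. In the respiratory chain limma called 0 of 25 genes (0 at an unadjusted p under 0.05), with a median of 0.03. Of 24 ribosome biogenesis genes 1 was called lower (4.17%, where 2.42% of all genes were). It was *Rrp9* (-0.65, adjusted p = 0.01, median of the list -0.16), a call lost without E11.5 replicate 3. In that list 6 genes were lower at an unadjusted p under 0.05, and 5 were called lower with the 18 germ cell arrays alone. At the cell surface 4 of 14 genes were higher (28.6%, where 3.91% of all genes were) and 1 lower (7.14%). With the 6 XX germ arrays alone 2 were higher, and in the fits without 1 array 2 to 4. *Itga6*, the integrin alpha-6 chain, had 7.63, 8.55 and 8.43, against 7.02, 7.23 and 6.99 (1.12, adjusted p = 4.5e-04), and *Fut4*, a fucosyltransferase, rose by 0.58 (adjusted p = 3.0e-04). *Cdh2* (0.53) and *Itgb1* (0.32) kept their calls in 2 and 1 of 6 fits without 1 array. *Cldn7*, a tight junction claudin, had 7.56, 7.44 and 7.47, against 8.25, 8.08 and 8.20 (-0.69, adjusted p = 2.5e-07). Genes that respond to dissociation and handling, such as *Fos* (-0.57, adjusted p = 0.0835) and *Ier2* (-0.57, adjusted p = 0.017), were called lower in 1 of 14 cases (7.14%, or 4 genes with the 18 germ cell arrays alone). The median was -0.42, and none had a positive difference. In XY germ cells 3 of these 14 genes were lower (median -0.36). The part of handling genes in the other results was not tested.

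To ask which changes belonged to XX germ cells, the step from E11.5 to E12.5 was compared with that of XY germ cells by the difference of the differences. Over all genes 72 (0.524%) had a higher step in XX and 34 (0.247%) a lower one. The higher count was 38 without XY E11.5 replicate 2, 39 without XX E11.5 replicate 1, 40 without XX E12.5 replicate 2, 47 without XY E12.5 replicate 2 and 44 with the 18 germ cell arrays alone, and the lower count was 21 without XX E12.5 replicate 2 and 22 without XY E11.5 replicate 1. In XY germ cells themselves 268 genes (1.95%) were higher and 319 (2.32%) lower at E12.5. In the meiotic entry list 0 of 6 genes were called in XY germ cells by limma (1 was higher at an unadjusted p under 0.05), and the step was larger in XX germ cells for *Stra8* (difference 2.29, adjusted p = 1.7e-11), *Meioc* (1.36, adjusted p = 0.00235), *Rec8* (0.95, adjusted p = 0.0107) and *Zglp1* (0.65, adjusted p = 0.0203), and was not shown to differ for *Ythdc2* (0.68, adjusted p = 0.912). The mean level of the 6 entry genes was 8.13, 8.37 and 7.70 in XX germ cells at E12.5, against 6.94, 7.07 and 7.07 in XY germ cells at E12.5, and at E11.5 it had been 6.67, 6.84 and 6.85 in XX and 6.77, 6.73 and 6.97 in XY germ cells.

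Of 18 germline licensing genes, 10 were called higher in both sexes and *Rpl10l* lower in both. *Taf7l* (0.51 in XY, adjusted p = 0.403) and *Tex101* (0.12, adjusted p = 0.916) were called in XX germ cells and not in XY germ cells, and *Ddx4* and *Piwil2* the other way round. In XY germ cells 12 of the 18 were higher (median 0.71), and none had a step that differed between the sexes in limma (2 were larger in XX at an unadjusted p under 0.05). *Brdt* rose by 1.33 in XX and 1.20 in XY germ cells, *Mael* by 1.10 and 0.98, *Slc25a31* by 1.32 and 1.14, and the piRNA gene *Tdrd7* by 1.33 and 1.11. Of 28 axis, synapsis and recombination genes, 11 were higher in XY germ cells (median 0.36). *Sycp1* rose in XY germ cells to 7.98, 8.52 and 7.97 at E12.5, against 7.17, 6.53 and 6.61 at E11.5 (1.39, adjusted p = 8.7e-05), a step not shown to differ from that of XX germ cells (0.77, adjusted p = 0.608), and *Sycp2* rose by 1.66 and 1.59. *Meiob* was the member whose step differed (1.77, adjusted p = 3.3e-05). It had 5.45, 5.10 and 4.61 in XY germ cells at E12.5, against 4.95, 4.67 and 4.59 at E11.5.

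**Figure D4:**
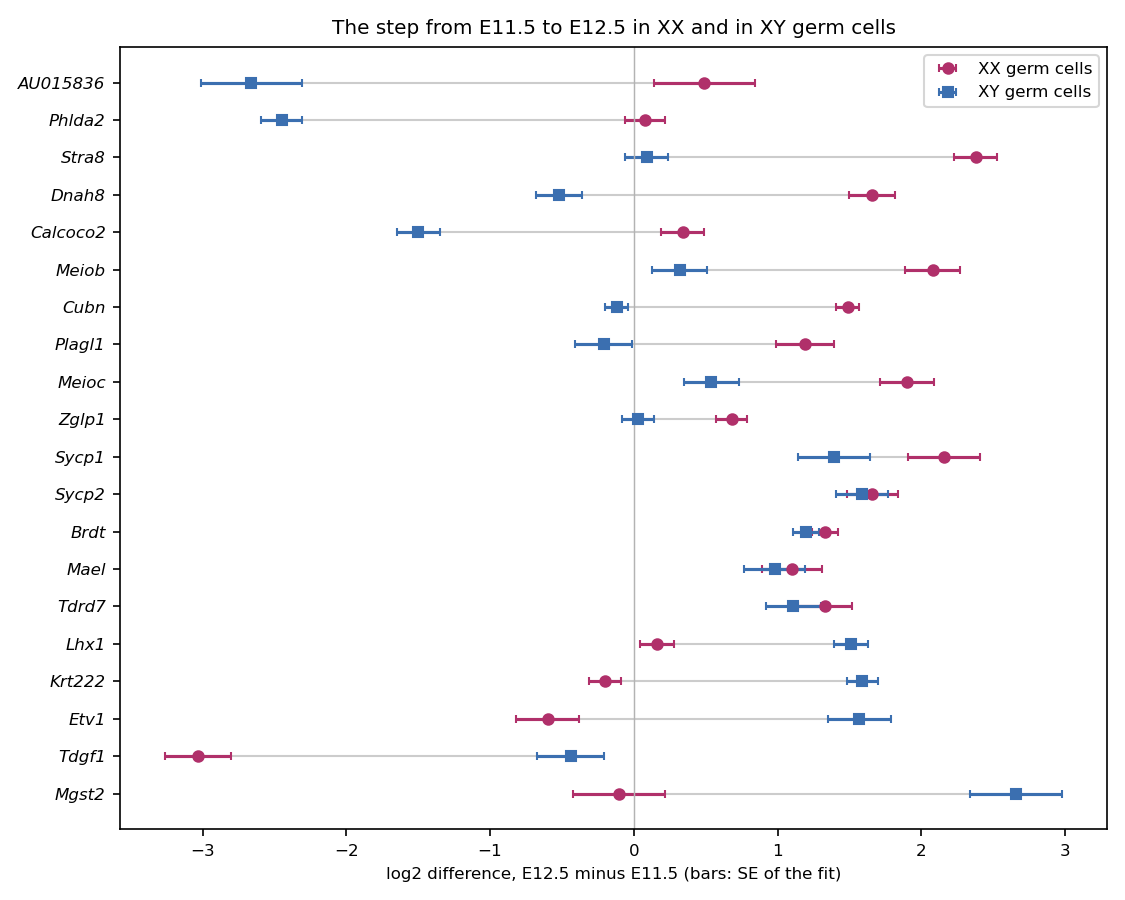
Log2 difference, E12.5 minus E11.5, of 20 genes, selected for the plot after their values were seen, in XX germ cells (circles) and XY germ cells (squares), with bars of 1 SE from limma. *Stra8*, *Meiob*, *Dnah8* and *Cubn* stand apart between the sexes, whereas *Brdt*, *Mael* and *Tdrd7* lie close together.

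Outside the lists, *Dnah8* had 6.03, 6.35 and 5.97 in XY germ cells at E12.5, against 6.65, 6.52 and 6.73 at E11.5, where it rose in XX germ cells (difference of steps 2.18, adjusted p = 8.1e-10), and *Cubn* stayed at 5.25 to 5.33 in XY germ cells at E12.5 (1.61, adjusted p = 5.1e-15). *Lonrf2* (1.15, adjusted p = 4.5e-04), *Slc35f5* (1.03, adjusted p = 0.0448) and *Rnf130* (0.86, adjusted p = 0.0155) rose more in XX germ cells. For *Axin2* the difference was 0.77 (adjusted p = 0.0379) and for *Plagl1* 1.41 (adjusted p = 0.00256).

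Several of the largest differences between the sexes lay in genes that were not called in XX germ cells. *Phlda2*, an imprinted gene of the pleckstrin homology-like family, had 9.94, 10.01 and 9.63 in XX germ cells at E12.5, against 9.75, 9.76 and 9.83 at E11.5. In XY germ cells it had 6.60, 6.64 and 6.58 at E12.5, against 8.98, 9.20 and 9.0 at E11.5 (difference of steps 2.54, adjusted p = 1.2e-13). The X-linked gene *AU015836* had 10.11, 9.94 and 9.99, against 9.26, 9.88 and 9.45 in XX germ cells, while XY germ cells had 7.25, 6.90 and 6.83, against 9.58, 9.67 and 9.70 (3.14, adjusted p = 3.3e-05). *Calcoco2*, an autophagy receptor, differed by 0.34 in XX and by -1.50 in XY germ cells (1.85, adjusted p = 1.6e-08).

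The other way round, *Etv1*, an ETS transcription factor, had 8.26, 8.02 and 7.95 in XX germ cells at E12.5, against 8.76, 8.75 and 8.53 at E11.5, while XY germ cells had 10.58, 10.60 and 10.57, against 9.32, 9.08 and 8.61 (-2.18, adjusted p = 3.9e-06). *Mgst2*, a microsomal glutathione transferase, differed by -0.10 in XX and 2.66 in XY germ cells (-2.76, adjusted p = 6.9e-05), and *Lhx1*, a LIM homeobox factor, by 0.16 and 1.51 (-1.35, adjusted p = 8.2e-08). In both examples the XX arrays of the stages overlapped. *Tdgf1* was lower in XX germ cells while XY germ cells kept it (-2.59, adjusted p = 3.4e-07). Among pluripotency genes 5 of 23 were lower in XY germ cells (median -0.22), *Nanog* by 0.63 there, and its difference of steps (0.13) did not pass.

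XX supporting cells gave a second comparison, of germ cells with their neighbours over the same day. Over all genes 359 (2.61%) had a higher and 358 (2.6%) a lower step in germ cells. *Sycp1* (2.33), *Taf7l* (3.19, adjusted p = 1.3e-08) and *Robo1*, an axon guidance receptor (3.17), had the higher step in germ cells. For *Taf7l* this holds a fall in supporting cells, which had 8.15, 8.93 and 8.55 at E12.5, against 9.94, 10.02 and 10.00 at E11.5, and for *Robo1* likewise, with 7.22, 7.20 and 7.41, against 9.74, 9.72 and 9.75, where germ cells rose by 0.71. *Egfl6*, an X-linked EGF-domain protein, had the lower step in germ cells (-3.20), and supporting cells had 10.12, 10.41 and 10.23 at E12.5, against 6.76, 6.13 and 6.50 at E11.5. *Tdgf1* (-2.81) and *Capsl* (-2.61) also had the lower step in germ cells, where they fell by 3.03 and 2.14. The meiotic entry genes did not pass in supporting cells, with 0 of 6 called (0 at an unadjusted p under 0.05) and a median of 0.05, and so were the licensing genes (0 of 18 higher and 1 lower, where 4.0% and 2.39% of all genes were, median -0.01).

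X-linked genes were called higher more often than autosomal genes in XX germ cells, by count alone. Of 436 X-linked genes tested, 39 (8.94%) were higher and 12 (2.75%) lower at E12.5, where of 13262 autosomal genes 496 (3.74%) were higher and 321 (2.42%) lower. The median log2 difference was 0.07 for X-linked and -0.012 for autosomal genes. In each array the median level of X-linked genes was set against that of autosomal genes. The difference was 0.22, 0.28 and 0.265 in XX germ cells at E12.5, against 0.071, 0.139 and 0.093 at E11.5, with no overlap, and 0.31, 0.363 and 0.361 at E13.5. In XY germ cells it was -0.08, -0.09 and -0.051 at E12.5, against 0.031, 0.163 and 0.061 at E11.5. *Taf7l* (1.75), *Scml2*, a Polycomb-related gene (1.49), *Tex13b* (1.47), *Tex11* (1.37), *Cnksr2* (1.13), *Dusp9*, a MAPK phosphatase (0.99), and *Clcn5*, a chloride transporter (0.93), led the X-linked rise, and *Scml2* and *Tex11* rose in XY germ cells too (1.37 and 1.49). *Xist*, the non-coding RNA of X inactivation, had 6.57, 6.36 and 8.22 at E12.5, against 6.86, 7.56 and 6.71 at E11.5, so that its arrays overlapped (0.01). In the X inactivation and escape list limma called 0 of 6 genes (0 at an unadjusted p under 0.05). The E12.5 array with 8.22 also had the highest *Nr2f2*, a stromal marker, at 8.06, against 6.57 and 6.08 in the other E12.5 arrays and 7.18 to 7.56 at E11.5, whose part in the *Xist* value was not tested. The difference between the medians of the X-linked and autosomal steps depended on the limit on low values (0.082, and 0.026 with no limit).

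**Figure D5:**
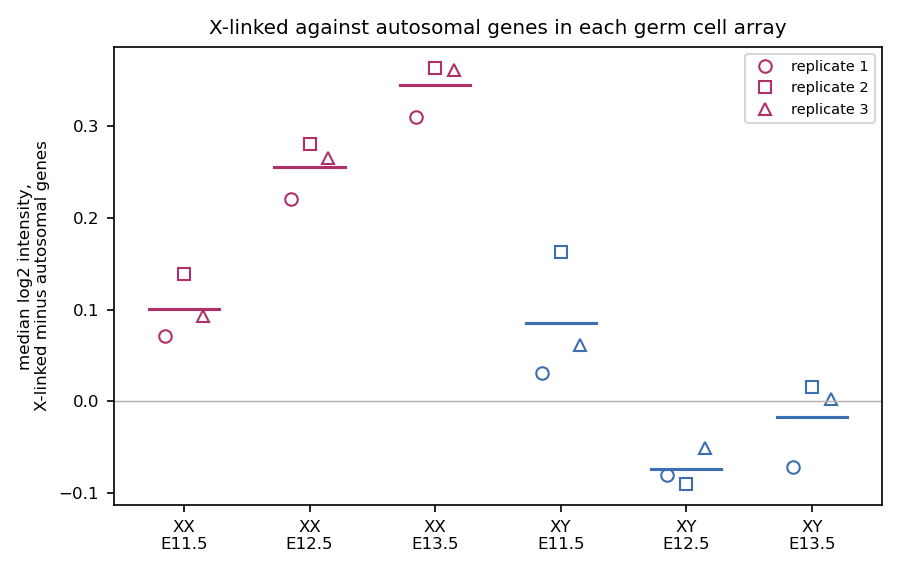
Median log2 intensity of X-linked genes minus that of autosomal genes in each germ cell array, by stage, for XX and XY germ cells. XX arrays lie at 0.22 to 0.28 at E12.5 and at 0.071 to 0.139 at E11.5, and the XY arrays of E12.5 lie below 0.

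From E12.5 to E13.5, XX germ cells had 701 genes higher (5.1%) and 934 lower (6.79%). This comparison shares the E12.5 arrays with the step described here, so the levels of the 3 stages are given side by side. The mean level of the 6 meiotic entry genes was 6.67 to 6.85 at E11.5, 7.70 to 8.37 at E12.5 and 9.20 to 9.46 at E13.5. That of the 28 axis, synapsis and recombination genes was 7.35 to 7.73, 8.03 to 8.46 and 9.06 to 9.57, and that of the 18 licensing genes 7.90 to 8.22, 8.63 to 9.04 and 9.65 to 9.87. The 23 pluripotency genes averaged 8.87 to 8.91, 8.48 to 8.68 and 7.69 to 7.98. The arrays of the stages did not overlap in any of these 4 lists. Single genes departed from this order. *Zglp1* averaged 6.73 at E13.5 and *Cubn* 7.05, against 6.65 to 7.26 and 7.12 to 7.34 in the E12.5 arrays, while *Meioc* (9.82), *Sycp1* (10.44) and *Taf7l* (10.99) lay above every E12.5 array.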

How the data were processed

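RNA of sorted cells was amplified (Nugen WT-Ovation Pico) and hybridised to Affymetrix Mouse Gene 1.0 ST arrays. The authors summarised the scans (GCOS) in Partek Genomics Suite by RMA with an adjustment of probes for GC content and sequence, and deposited log2 values of 35557 transcript clusters on 91 arrays. Per the study's methods, RMA with quantile normalization was run over all 91 arrays for 1 analysis and over 72 for the others. The deposited table holds 91, and which run its values come from is not given in the sources used here. Clusters naming several genes (1621) or none (12147) were left out, and no value was normalized again except as an alternative.

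Groups were fitted with limma 3.58.1 in R 4.3.3 (counts in Python 3.11.15), with 1 mean for each of 24 groups over 72 arrays (48 residual degrees of freedom), so the spread of all groups sets the error. A call is a Benjamini-Hochberg adjusted p under 0.05 over 15093 clusters. A gene with several clusters (756 genes) was counted by the cluster with the highest mean. In simulated data of the E12.5 against E11.5 comparison (15093 clusters), 91% of clusters changed by 2-fold and 56% of those changed by 1.5-fold were recovered. The simulation drew independent errors with 1 spread per cluster in all groups, as the fit assumes, so recovery in the real arrays may differ. Alternatives were the study's rule (unadjusted p under 0.05, fold over 1.5), other limits, fits and normalizations, a replicate block and fits without 1 array.

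Genes named are the 15 largest differences in each direction among those called without overlap, up to 6 called and the first 3 members of each list, *Stra8*, *Pou5f1*, and the 8 (XX against XY) and 5 (germ against supporting) largest differences of steps in each direction. Others were named after their values were seen. The members and lists were chosen with earlier results of these data known. Promoter windows are from RefSeq (GRCm38.p6).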

Additional observations from a re-analysis of the deposited data

Results flagged for a closer look

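Genes are given here because their step from E11.5 to E12.5 in XX germ cells differed, by the test of that difference in limma (adjusted p under 0.05), from the step of XY germ cells or of XX supporting cells. Against XY germ cells, the step of *AU015836* was higher by 3.14 on the log2 scale, that of *Phlda2* by 2.54, *1700013H16Rik* by 2.38, *Stra8* by 2.29, *Dnah8* by 2.18, *Calcoco2* by 1.85, *Meiob* by 1.77 and *Cubn* by 1.61. It was lower for *Mgst2* (-2.76), *Tdgf1* (-2.59), *Etv1* (-2.18), *Krt222* (-1.79), *Copz2* (-1.74), *Zfp773* (-1.73), *Dgka* (-1.61) and *Lhx1* (-1.35). *Meiob* lost this call when only the 18 germ cell arrays were fitted. *1700013H16Rik*, an X-linked gene, was at 8.04, 8.82 and 7.83 in XX germ cells at E12.5, against 7.99, 7.48 and 6.92 at E11.5, and differed by 0.76 there and by -1.61 in XY germ cells. *Krt222*, a keratin gene, differed by -0.20 in XX and 1.59 in XY germ cells, and *Dgka*, a diacylglycerol kinase, by 0.27 and 1.88.

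Against XX supporting cells, the step was higher for *Taf7l* (3.19), *Robo1* (3.17), *Pnliprp2* (2.43), *Tgm3* (2.42) and *Sycp1* (2.33), and lower for *Egfl6* (-3.20), *Tdgf1* (-2.81), *Capsl* (-2.61), *Bmp5* (-2.49) and *Gng13* (-2.35). *Pnliprp2*, *Tgm3*, *Bmp5* and *Gng13* differed by -0.16, 0.04, -0.30 and 0.03 in XX germ cells and were not called there.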

How the results depend on the processing

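None of the 77 named genes called in the XX step changed direction in the fits without 1 array. For genes whose arrays did not overlap between the stages this was fixed in advance, so it is no support for them. Genes not called, such as *Xist* (0.01), were left out of that check. With the 6 XX germ arrays fitted alone, 209 genes were lower, against 333 in the fit of 72 arrays, 10 axis, synapsis and recombination genes were higher and 1 pluripotency gene lower. An adjusted p under 0.05 with a fold over 1.5 left 307 higher and 151 lower, and an unadjusted p with that fold gave 195 lower. For XX minus XY steps an unadjusted p with that fold gave 298 higher and 127 lower, the 18 germ cell arrays alone 44 higher, and a limit of 7 gave 18 lower. For germ minus supporting steps the unadjusted p with that fold gave 542 higher and 649 lower. Fits without 1 array gave 272 to 504 higher and 154 to 314 lower in the XX step, 38 to 85 and 21 to 34 in XX minus XY, 242 to 325 and 243 to 337 in germ minus supporting, 2 to 4 pluripotency genes lower, 9 to 16 axis, synapsis and recombination genes higher and 10 to 12 licensing genes higher. With no limit on low values, the X-linked minus autosomal difference was 0.026 in place of 0.082. Same-numbered XX arrays of the 2 stages deviated together at r of 0.06, 0.161 and 0.028, and were not taken as paired. Same-numbered XX and XY arrays did so at 0.137, 0.137 and 0.215 (E12.5) and 0.195, 0.236 and 0.079 (E11.5), so a block shared by the sexes was also fitted. Differently numbered ones were all below 0. Deviations from a group mean sum to 0, which pushes these values down where same-numbered ones are positive, so they add no separate evidence of pairing. With the replicate block the XX step had 543 higher and 337 lower, XX minus XY 63 and 27 (83 and 30 with the shared block, chosen after seeing the data), germ minus supporting 350 and 378, and the lists 6 pluripotency genes lower, 12 licensing and 16 axis genes higher. Of 77 named genes called in the XX step, 49 kept the call in all 6 fits without 1 of its arrays and 28 lost it in at least 1. Quantile normalization and centring moved the median of all genes from -0.01 to -0.021 and -0.025. Levels under 6 lie near background, and their ratios may understate a change. Beyond the fewer arrays or stricter rule of a setting, the cause of a moved count was not tested.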
